A study of Mus musculus with 7 samples.

Results

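The cytosolic ribosomal proteins are the protein subunits of the ribosome in the cytoplasm, and their transcripts were followed here in the liver of Zfp90 transgenic and wild-type mice. Members were the genes whose platform symbol starts with Rpl or Rps followed by a digit, together with Rplp0, Rplp2 and Rpsa. Ribosomal S6 kinases (5 symbols starting with Rps6k) and 9 pseudogene symbols were left out, as were 10 probes annotated with several symbols. This gave 67 of the 16468 named genes on the array, read by 103 probes, 44 of them for the large subunit (Rpl and Rplp) and 23 for the small subunit (Rps and Rpsa). Rplp1 had no probe of its own symbol. The symbol rule also takes in Rps19bp1, a protein that binds a ribosomal protein, and Rpl6l, which the RefSeq gene table lists as a pseudogene.

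The transgenic group held 3 mice (1 female and 2 males) that carry a transgene for Zfp90, a zinc finger protein, and the wild-type group held 4 littermate controls (1 female and 3 males). Per the labels, RNA of each liver carried Cy5 and was set on two-colour arrays against a common pool of RNA from 4 wild-type livers, males and females together, in Cy3. A dye swap is stated too, without how it was combined, and the table holds 1 column per animal, called an array below. The labels do not give the promoter of the transgene, the number of founder lines, the strain or the age, nor whether the pooled mice were those on the arrays. Every value below is a log2 ratio of the animal to the pool, so that 0 equals the pool and 1 is a doubling, and a level can be compared between animals but not between genes. Values of a group are listed with the female first and then the males in the order of their numbers. In bulk liver, fewer cells of a type and less RNA per cell cannot be told apart.

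Zfp90 itself read 0.34, 0.58 and 0.45 in the transgenic livers and 0.37, -0.15, -0.29 and -0.11 in the wild-type livers. The difference was 0.48 ± 0.15 (SE), or 1.4-fold, with an adjusted p of 0.678. The array labelled wild-type female lay inside the transgenic range, so the targeted gene does not bear out that label. Without it the genotype difference is that between males, which was 0.69 for Zfp90 and is given below for the counts, the lists and the members with the smallest p. The Y-linked gene Kdm5d read -2.54, 0.35 and 0.37 in the transgenic livers and -3.22, 0.61, 0.14 and 0.66 in the wild-type livers. It was low on both female arrays, which set the direction of the ratios there. All male arrays read above 0, but the 0.14 of wild-type male 3 is small and by itself says little on the direction of that array. Over all probes, 3 pairs of arrays correlated below -0.3: the transgenic female with wild-type male 4 (r = -0.497), and wild-type males 3 (-0.363) and 2 (-0.307) with the array labelled wild-type female. The direction was kept because the labels give the dyes and Kdm5d matched the labelled sex on all 7 arrays. If all signs were turned, the differences would turn with them and the p-values would stay. Array medians over all probes ran from -0.014 to 0.0309.

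Ribosomal proteins are made in fixed proportion to ribosomal RNA, and their mRNAs are among the most abundant in a cell. In mammals these mRNAs start at a C within a run of pyrimidines, the 5′ terminal oligopyrimidine (TOP) motif, through which the mTOR kinase and the protein Larp1 set how many of them are translated. Liver is a main source of plasma proteins and carries a large pool of ribosomes, and in mice S6 phosphorylation downstream of mTOR follows feeding. Regulation through TOP acts on translation, so an mRNA level reads only part of this control.

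The transcription start regions show the sequences that many members share. RefSeq windows from 30 bases before the annotated start to 20 bases after it (assembly GRCm38.p6) were at hand for 56 of the 67 genes. The pyrimidine run CTTTC, read on the sense strand only, lay in the window of 15 of the 56 (26.8%), against 8% of all 27025 genes in the table. Its reverse complement GAAAG lay in 3.57% of the members and 6.96% of all genes. The core CGGAAG bound by ETS factors such as Gabpa, read on both strands, lay within the whole 300 bases around the start in 38 of the 56 (67.9%), against 18.8% of all genes. Within the window of 50 bases the ETS core lay in 16 of the 56 (28.6%), against 6.78%. The core AAGATGGC of Yy1, also on both strands, lay within the whole 300 bases in 5 of the 56 (8.93%), against 3.19%. CTTTC and CTTCCG, the ETS core on the other strand, can share an end base. The windows shown are those of the members with the smallest p in either direction, described below, that hold a match to CTTTC or the ETS core. Capitals mark the match, base 31 is the annotated start, and all lie on the plus strand. For Rps27l the window of 1 of its 2 entries is shown.
Rpl31, chr1:39367821-39367870: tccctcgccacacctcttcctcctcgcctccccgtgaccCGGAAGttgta
Rpl6, chr5:121204471-121204520: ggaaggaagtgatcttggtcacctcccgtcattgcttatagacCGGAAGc
Rpl28, chr7:4792935-4792984: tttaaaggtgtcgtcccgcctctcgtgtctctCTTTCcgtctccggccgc
Rplp2, chr7:141447621-141447670: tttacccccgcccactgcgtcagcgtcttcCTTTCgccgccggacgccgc
Rpl13, chr8:123102320-123102369: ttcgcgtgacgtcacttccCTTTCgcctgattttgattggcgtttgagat
Rps27l, chr9:66946056-66946105: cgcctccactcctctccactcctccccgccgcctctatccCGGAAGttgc
Rpl26, chr11:68901536-68901585: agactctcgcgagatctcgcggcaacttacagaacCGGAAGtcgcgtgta
Both motifs occur among genes that read higher and genes that read lower in the transgenic livers. The 15 members with CTTTC in the window had a median transgenic minus wild-type difference of -0.016 (7 positive), and the 41 without it -0.024 (19 positive). The 38 members with the ETS core had a median of -0.0080 (18 positive), and the 18 without it -0.042 (8 positive). Between males the medians were 0.031 with CTTTC and -0.010 without it, and 0.017 with the ETS core and -0.035 without it. A match is a description of the letters and shows no bound factor.

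Whether the Zfp90 transgene goes with a shift in ribosomal protein mRNAs is asked by the comparison of 3 transgenic with 4 wild-type livers, fitted with sex as a second term. Of the 67 genes, 0 passed an adjusted p of 0.05 in limma's test, on a background of 0% (0 of 22218 features). The lowest adjusted p among the 67 was 0.712, and over all features it was 0.0947. The fitted difference was above 0 for 30 members and below 0 for 37. Its median was -0.031, a ratio of 0.979, against a median of -0.0054 over all features. A positive difference was held by 44.8% of the members and 48.2% of all features. At an unadjusted p under 0.05, 1 member was higher (Rpl27, background 3.82%) and 1 lower (Rps27l, background 3.1%). All 3 transgenic arrays lay above all 4 wild-type arrays for 1 member (Rpl27, background 3.17%) and below them for 3 (Rpl24, Rpl28 and Rps27l, background 2.84%). These shares of the 67 are not far from those of all features.

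The precision behind this is moderate. Standard errors of the 67 differences ran from 0.083 to 0.26 (median 0.13, against 0.12 over all features). The 95% interval reached a median of 0.30 either side of the estimate, or 1.23-fold, and 0.62 for the least precise gene. It took in 0 for 65 of the 67 genes, and 62 of the 67 differences were smaller than 0.3 in size. Since scanner intensities were not used here, how far each gene stood above background is unknown, and the small number of animals is a limit on precision.

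**Figure D1:**
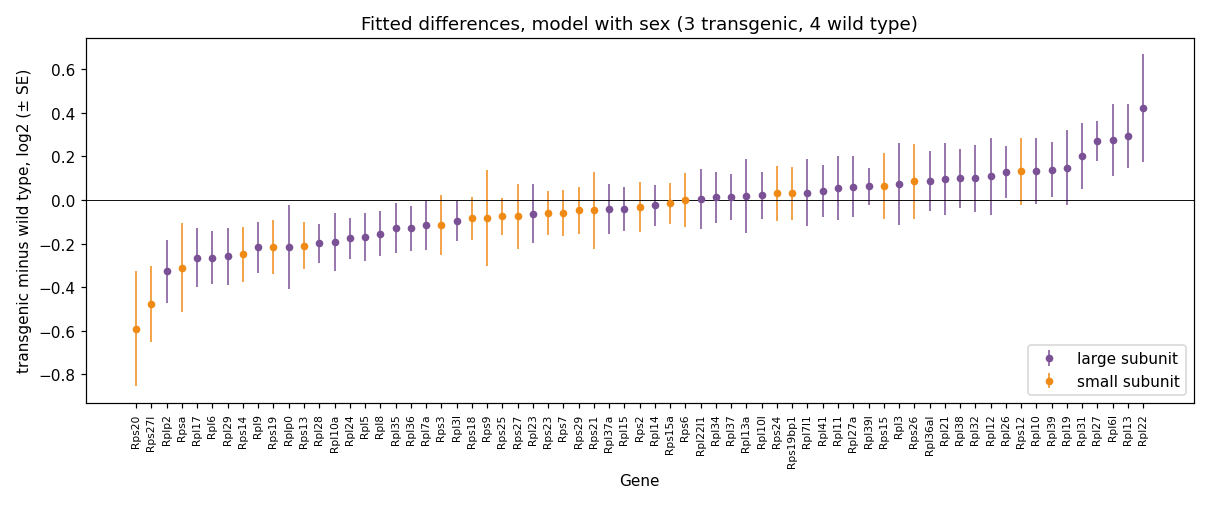
Fitted transgenic minus wild-type difference (log2, y axis) of each of the 67 ribosomal protein genes (x axis, ordered), as points with bars of 1 SE from the model with sex (3 transgenic, 4 wild type). Differences run from -0.59 (Rps20) to 0.42 (Rpl22), most bars cross 0, and small-subunit genes are more often left of the middle.

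Among large-subunit genes 25 of 44 differences were positive (median 0.016), and among small-subunit genes 5 of 23 (median -0.059). A set of 27 of the 33 listed proteins shared by bacteria, archaea and eukaryotes had 8 positive differences and a median of -0.083. The 32 members outside that set and outside the paralogs had 16 positive differences and a median of 0.0060. The paralogs and like-named genes (8 of 11 listed) had 6 positive differences and a median of 0.026. Between males alone, 25 of 44 large-subunit differences were positive (median 0.030), 7 of 23 small-subunit ones (-0.018), 10 of 27 universal ones (-0.014), 19 of the 32 others (0.022) and 3 of the 8 paralogs (-0.052), so the median of the paralogs turned its sign. Over all features, 44.6% of the differences between males were positive and their median was -0.018. No member of these lists passed the test.

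Of the stalk, the arm of the large subunit that recruits translation factors, 3 of 4 listed genes were measured. Rplp0, the stalk's anchor and a common reference gene in quantitative PCR, read -0.43, -0.088 and -0.00083 in the transgenic livers, against 0.27, 0.075, -0.40 and 0.23 in the wild-type livers. Its difference was -0.22 ± 0.19 (adjusted p = 0.876), and -0.014 between males. Wild-type male 3 lay nearly as low as the transgenic female, and the groups overlap. The stalk protein Rplp2 read -0.52, -0.32 and -0.025 in the transgenic livers, against 0.14, 0.0060, -0.15 and 0.20 in the wild-type livers, a difference of -0.33 ± 0.14 (adjusted p = 0.725). The low values of Rplp2 were those of the transgenic female and male 1, and transgenic male 2 lay inside the wild-type range. Rpl12, at the base of the stalk, read -0.29, 0.56 and 0.080 in the transgenic livers and -0.093, 0.076, 0.35 and -0.18 in the wild-type livers, with transgenic male 1 the highest array and the transgenic female the lowest.

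Around the exit of the tunnel through which the new protein chain leaves the large subunit, 7 of 8 listed genes were measured, 5 with a positive difference (median 0.14; between males 6, median 0.16). Rpl22, an RNA-binding protein whose loss in mice blocks the development of alpha-beta T cells, read 0.30, 0.46 and 0.064 in the transgenic livers and -0.47, -0.042, 0.51 and -0.51 in the wild-type livers. Its difference of 0.42 ± 0.25 was the largest positive one among the 67 (adjusted p = 0.771), but wild-type male 3 was the highest array of all. Rpl31 read 0.29, 0.19 and 0.17 in the transgenic livers and -0.023, -0.070, 0.38 and -0.24 in the wild-type livers, where again wild-type male 3 stood above the transgenic animals. Rpl39, a short protein in the tunnel wall encoded on the X chromosome, read -0.063, 0.40 and 0.23 in the transgenic livers and -0.058, 0.049, 0.36 and -0.060 in the wild-type livers. Rpl26 read -0.19, 0.090 and 0.23 in the transgenic livers and -0.043, 0.042, -0.23 and -0.065 in the wild-type livers, with only the 2 transgenic males above the wild-type range. Rpl17 pointed the other way, with -0.32, 0.14 and -0.031 in the transgenic livers and 0.33, 0.16, 0.30 and 0.031 in the wild-type livers (-0.27 ± 0.14, adjusted p = 0.746). Rpl19 and Rpl35, the other measured genes at the exit, differed by 0.15 ± 0.17 and -0.13 ± 0.11.

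Rpl27, on the solvent side of the large subunit, was the member with the smallest p. It read 0.12, 0.14 and 0.30 in the transgenic livers, against -0.14, -0.022, 0.0085 and -0.15 in the wild-type livers, so the groups do not overlap. The difference was 0.27 ± 0.092, or 1.21-fold (adjusted p = 0.712), and between males alone it was 0.27. Its 2 probes disagreed in detail: probe 1 read 0.0066, -0.085 and 0.50 in the transgenic livers and -0.074, 0.015, -0.24 and 0.055 in the wild-type livers, and probe 2 read 0.24, 0.36 and 0.093 in the transgenic livers and -0.21, -0.059, 0.26 and -0.35 in the wild-type livers. On neither probe alone were the groups apart. Rpl13 read 0.53, 0.29 and 0.12 in the transgenic livers and -0.057, -0.0090, 0.29 and -0.19 in the wild-type livers, a difference of 0.29 ± 0.15 (adjusted p = 0.746). The pseudogene Rpl6l had nearly the same profile, with 0.45, 0.27 and 0.14 in the transgenic livers and -0.12, -0.0037, 0.39 and -0.22 in the wild-type livers. Rpl10, which joins the large subunit late in its assembly and lies on the X chromosome, read 0.13, 0.22 and -0.11 in the transgenic livers and -0.085, -0.058, 0.23 and -0.32 in the wild-type livers. In Rpl13, Rpl6l and Rpl10 wild-type male 3 lay within the transgenic range or above it, and the other wild-type arrays lay below 0.

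Rpl28, a eukaryote-specific protein of the large subunit, read -0.21, -0.13 and -0.29 in the transgenic livers, against 0.082, -0.023, -0.023 and -0.10 in the wild-type livers, with no overlap (-0.20 ± 0.090, adjusted p = 0.728). Rpl24, which forms a bridge to the small subunit and is mutated in the Belly spot and tail mouse, read -0.24, -0.16 and -0.098 in the transgenic livers and 0.10, 0.0081, -0.097 and 0.019 in the wild-type livers. The groups of Rpl24 do not overlap but nearly touch. Rpl6 read -0.53, -0.069 and -0.0045 in the transgenic livers and 0.037, 0.26, -0.043 and 0.096 in the wild-type livers, a difference of -0.26 ± 0.12, with the transgenic female the lowest array. Rpl29, a protein whose loss in mice leads to small stature, read -0.27, -0.16 and -0.35 in the transgenic livers and 0.29, 0.045, -0.093 and -0.31 in the wild-type livers, low in all 3 transgenic animals and in wild-type male 4. Rpl5 and Rpl11 bind the 5S RNA and, when free, inhibit Mdm2. Rpl5 read -0.37, -0.15 and -0.092 in the transgenic livers and 0.089, -0.16, 0.0025 and -0.055 in the wild-type livers. Rpl11 read -0.23, 0.24 and 0.040 in the transgenic livers and -0.054, 0.039, 0.22 and -0.30 in the wild-type livers. Both genes overlapped between genotypes, and Rpl5 was low in the transgenic female more than Rpl11 was.

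In the head of the small subunit 8 of 14 listed genes were measured, 2 with a positive difference (median -0.080; between males also 2, median -0.036). Rps20 had the most negative difference of the 67, -0.59 ± 0.26, and also the largest SE (adjusted p = 0.726). It read -0.71, -0.69 and -0.11 in the transgenic livers and 0.52, -0.25, -0.38 and 0.40 in the wild-type livers, so that its wild-type animals alone spread from -0.38 to 0.52. Rps14, on the platform of the small subunit, was even in the transgenic livers at -0.36, -0.32 and -0.35, against 0.22, -0.39, -0.10 and -0.18 in the wild-type livers. The array labelled wild-type female alone stood well above the others, and without it the difference of Rps14 was -0.11, against -0.25 ± 0.13 with it. Rpsa, also known as the laminin receptor, read -0.71, -0.13 and -0.052 in the transgenic livers and 0.23, 0.064, -0.37 and 0.19 in the wild-type livers, a difference of -0.31 ± 0.20 (adjusted p = 0.796) and of -0.052 between males. Rps6, the protein that S6 kinases phosphorylate, read -0.13, 0.014 and -0.0088 in the transgenic livers and 0.012, -0.043, 0.17 and -0.29 in the wild-type livers, a fitted difference of -0.00033 ± 0.13.

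Rps27l is a paralog of Rps27 and a known target of p53. It read -1.18, -0.11 and -0.21 in the transgenic livers, against -0.068, 0.034, -0.033 and 0.16 in the wild-type livers, all 3 transgenic arrays below all wild-type arrays. The difference was -0.48 ± 0.18, or 1.39-fold lower (adjusted p = 0.718), and it rests largely on the transgenic female: between males it was -0.22. Rps27 itself read -0.19, -0.054 and -0.16 in the transgenic livers and -0.060, -0.14, 0.30 and -0.31 in the wild-type livers, with the highest and the lowest array both wild type. Rpl22l1, the paralog of Rpl22, read -0.035, 0.086 and -0.045 in the transgenic livers and -0.25, -0.049, 0.39 and -0.025 in the wild-type livers. The remaining members by symbol had differences between -0.22 and 0.13.

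**Figure D2:**
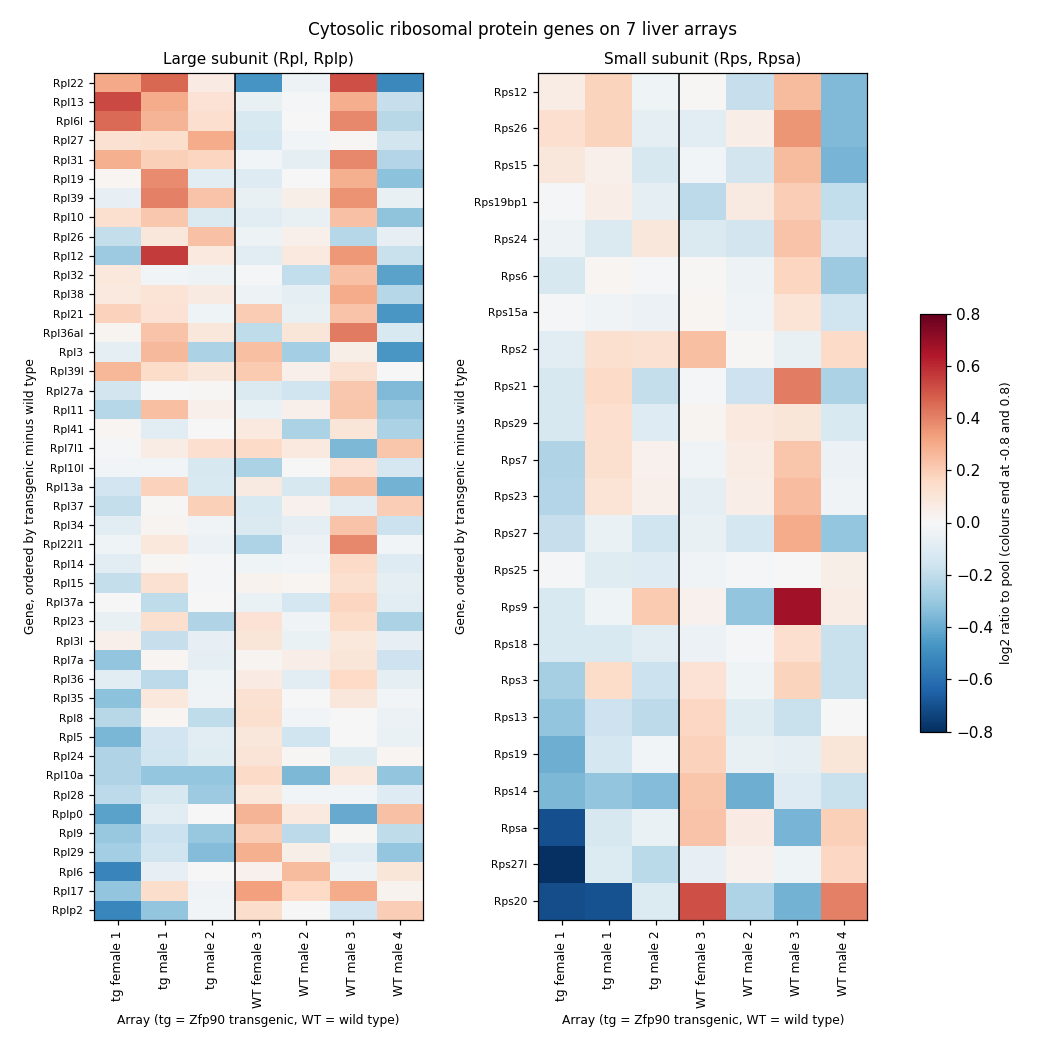
Log2 ratio to the wild-type pool of the 67 ribosomal protein genes (rows, ordered by fitted difference) on the 7 arrays (columns, transgenic left of the line and wild type right of it), large subunit in the left panel and small subunit in the right. Red is above and blue below the pool, with colours ending at -0.8 and 0.8, so the -1.18 of Rps27l in the transgenic female is drawn at the end of the scale. Whole columns differ in tone, with wild-type male 3 mostly red and wild-type male 4 mostly blue.

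Members varied between animals of the same genotype. The range of a member over the 7 arrays had a median of 0.516, against 0.464 for all features, and it was under 1 for 64 of the 67. The steadiest genes were Rps25 (range 0.153), Rpl14 (0.254) and Rps29 (0.261), and the widest were Rps27l (1.34), Rps20 (1.23) and Rpl22 (1.03). The median of the 67 genes was -0.12, 0.025 and -0.034 in the transgenic livers, against 0.012, -0.022, 0.15 and -0.15 in the wild-type livers. The highest and the lowest of these medians both belonged to wild-type males, so the genotypes overlap.

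Wild-type males 3 and 4 stood at opposite ends. Wild-type male 3 was the highest of the 7 arrays for 33 of the 67 genes (49.3%), against 19.96% of all features. Wild-type male 4 was the lowest for 27 (40.3%), against 22.7% of all features, and the transgenic female for 24 (35.8%), against 19.5%. Wild-type male 3 lay above wild-type male 4 for 53 of the 67 genes, while this held for 53.8% of all features. Over the 67 genes these males correlated at r = -0.595, against -0.185 over all features. Transgenic male 1 and wild-type male 3 correlated at 0.595 over the members, and the transgenic female and wild-type male 3 at 0.557. These correlations run across genes of shared arrays and a shared pool, and the genes are not independent replicates.

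**Figure D3:**
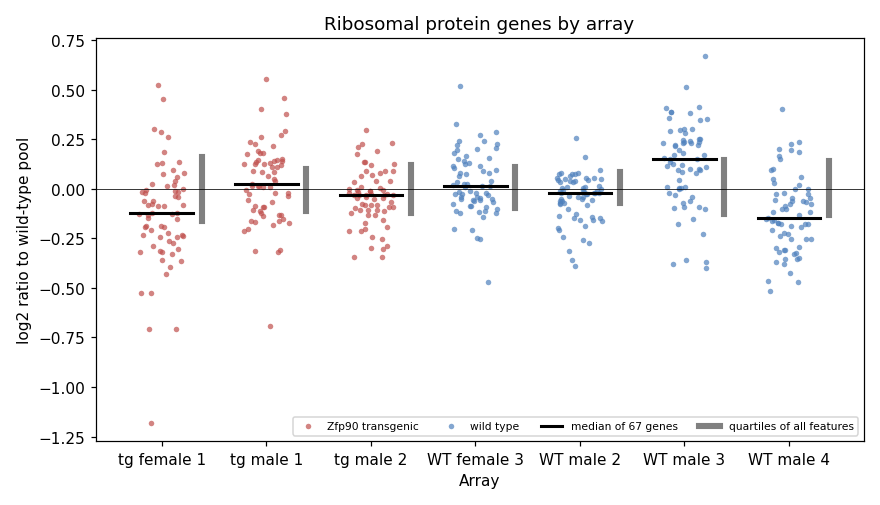
Log2 ratio to the pool (y axis) of each ribosomal protein gene (points, 67 per array) on the 3 transgenic arrays (red) and the 4 wild-type arrays (blue), with the median of the 67 genes as a black line and the quartiles of all features as a grey bar. Medians run from -0.15 in wild-type male 4 to 0.15 in wild-type male 3, and the 3 transgenic medians lie between these.

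Members followed this common profile over the animals to differing degrees. The mean correlation between pairs of members over the 7 arrays was 0.235, and between pairs of all named genes 0.0032. For 41 of the 67 genes r with the median of the others was above 0.5, with Rpl14 (0.949), Rps6 (0.942), Rps27 (0.940) and Rpl13a (0.903) at the top. It was below 0 for 9, the lowest being Rpl7l1 (-0.725), Rpl37 (-0.313) and Rplp0 (-0.298). Rpl7l1, a paralog of Rpl7, read -0.016, 0.062 and 0.14 in the transgenic livers and 0.15, 0.081, -0.36 and 0.22 in the wild-type livers, with its only clearly low value in wild-type male 3. Outside the members, the genes with the profile most like the members' median were Olfr691 (r = 0.966), Asb17 (0.963), Kndc1 (0.961), Apoa5 (0.960) and Pabpc1 (0.959), each over 7 arrays. Pabpc1, the poly(A)-binding protein, is itself made from a TOP mRNA, and Apoa5 is an apolipoprotein of the liver. These genes were picked for the largest r among all other named genes. With 7 arrays and so many genes, a high r can arise without shared control, which was not tested.

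Probes of the same gene were in part alike. Of the 26 members with more than 1 probe, 21 had all probes on the same side of 0 in the fit and 5 had probes on both sides. The median gap between probes of a gene on an array was 0.18, and the median correlation between them over the 7 arrays was 0.557. The widest gaps were in Rpl17 (mean 0.42), Rpl27 (0.31) and Rplp2 (0.28). In Rpl17, probe 2 read -0.82, 0.66 and 0.032 in the transgenic livers and 0.82, 0.57, 0.87 and 0.19 in the wild-type livers, while probe 1 stayed between -0.068 and 0.069. Many ribosomal protein genes have processed pseudogenes of nearly the same sequence, and their part in a probe's signal was not tested.

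Sex was the second term of the model, with 2 females against 5 males. Of the 67 genes, 0 passed an adjusted p of 0.05, on a background of 0.351% (78 of 22218 features), and the lowest adjusted p among them was 0.437. There were 28 positive and 39 negative female minus male differences, with a median of -0.028, against 0.0096 over all features. At an unadjusted p under 0.05, 0 members were higher in females (background 3.65%) and 1 was lower (background 5.57%). That gene was Rps27l, with a mean of -0.62 in females and -0.031 in males, a fitted difference of -0.54 ± 0.19 (adjusted p = 0.437). The female mean of Rps27l combines the -1.18 of the transgenic female with the -0.068 of the array labelled wild-type female, so the 2 females do not agree.

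Both females lay below all 5 males for 2 members, Rpl37 and Rps23, a protein of the decoding centre (background 6.83%). They lay above all males for 1, Rpl39l, a paralog of Rpl39 known for its expression in testis (background 6.04%). Rps23 averaged -0.16 in females and 0.084 in males (-0.23 ± 0.11), and Rpl39l 0.24 in females and 0.079 in males (0.15 ± 0.092). The other members with the smallest p were lower in females for Rpl6 (-0.27 ± 0.13), Rpl12 (-0.38 ± 0.19) and the X-linked Rpl39 (-0.27 ± 0.14). They were higher in females for Rps14 (0.22 ± 0.14), Rpl10a (0.22 ± 0.15), Rpl29 (0.21 ± 0.15) and Rpl3l (0.13 ± 0.098), a paralog of Rpl3 from striated muscle. None of these passed the test. Kupffer cell markers were higher in females for 11 of 11 genes measured (median 0.80), against 52.3% of all features. So were endothelial markers for 8 of 9 (0.20), neutrophil markers for 6 of 8 (0.26) and lymphocyte markers for 8 of 11 (0.096). Hepatocyte markers were higher for 5 of 12 and erythroid markers for 3 of 6. The part of these cells in the sex differences of the members was not tested. Without the array labelled wild-type female the median female minus male difference was -0.094, and without the transgenic female it was 0.025.

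The genotype difference of the members was more negative between females than between males. Between the females, transgenic minus the array labelled wild-type female, the median difference of the 67 genes was -0.15, and 46 of 67 were lower, against 47.7% of all features. Between the means of 2 transgenic and 3 wild-type males the median was -0.0040, and 35 of 67 were lower. Over all features the median between males was -0.018, and 12316 of 22218 were lower. Members lower in the transgenic animals in both sexes numbered 30 and members higher in both numbered 16. A further 16 were lower between females and higher between males, and 5 the reverse. The shares of all features in these classes are not given here. Alone among males, 0 members passed an adjusted p of 0.05 (background 0.0315%), and at an unadjusted p under 0.05 Rpl27 was higher (background 3.92%) and 0 were lower (background 3.04%).

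The interaction of genotype and sex tests whether the genotype difference of females departs from that of males, with 1 female per genotype, so that its spread comes from the males. Of the 67 genes, 0 passed an adjusted p of 0.05, on a background of 0.072% (16 of 22218 features). The interaction was negative for 48 of the 67 genes, with a median of -0.15, against 0.021 over all features. At an unadjusted p under 0.05, 3 members were negative (background 4.49%) and 0 positive (background 3.93%). They were Rps27l (-0.90 ± 0.21, adjusted p = 0.33), Rpsa (-0.88 ± 0.33, adjusted p = 0.554) and Rps19 (-0.51 ± 0.21, adjusted p = 0.587), the gene most often mutated in human Diamond-Blackfan anaemia. Rps19 read -0.39, -0.14 and -0.020 in the transgenic livers and 0.18, -0.061, -0.071 and 0.098 in the wild-type livers, with the lowest and the highest value in the females. By list, the interaction was negative for 24 of the 27 measured universal proteins (median -0.37). It was also negative for 20 of 21 genes listed as elongation factors and other TOP mRNAs (median -0.23). It was negative for 53 of 72 biogenesis genes (median -0.22) and 16 of 21 initiation factors (median -0.28). The same held for 7 of 8 p53 targets and regulators (median -0.58), 8 of 12 quality control genes (median -0.11) and 3 of 5 S6 kinases (median -0.079). It was positive for 15 of 25 genes of mTOR and transcription control (median 0.16), 8 of 15 of RNA polymerase I (median 0.070) and 5 of 8 paralogs (median 0.13), and for 52.4% of all features. Cell type markers did not all move alike in the interaction. The interaction was negative for 9 of 11 Kupffer cell markers (median -1.19), 8 of them at an unadjusted p under 0.05, and for 6 of 8 neutrophil markers (median -0.50), 4 of them at that p. Erythroid markers went the other way, positive for 5 of 6 (median 0.48), and hepatocyte markers were positive for 7 of 12 (median 0.024). Lymphocyte markers were positive for 5 of 11 (median -0.022) and endothelial markers for 4 of 9 (median -0.044). The part of these cells in the interaction of the ribosomal protein genes was not tested. The interaction needs the array labelled wild-type female, without which it could not be fitted.

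**Figure D4:**
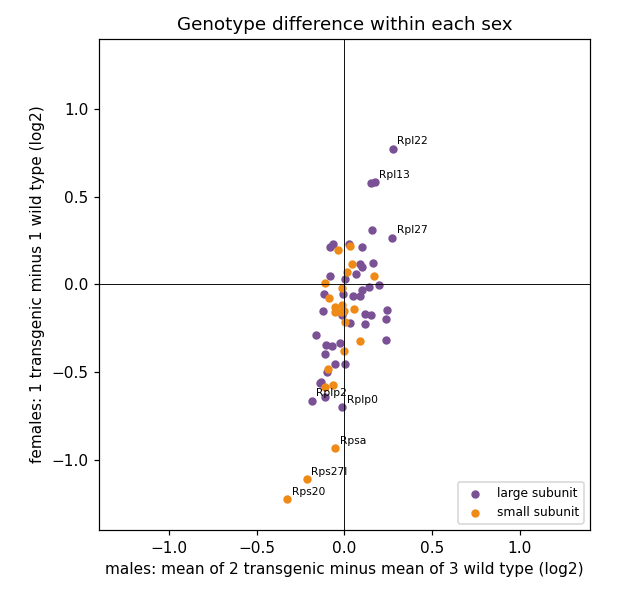
Transgenic minus wild-type difference (log2) of each ribosomal protein gene between males (x axis, mean of 2 minus mean of 3 animals) and between females (y axis, 1 minus 1 animal), large subunit in purple and small subunit in orange, on equal axes. Differences between females spread from -1.23 (Rps20) to 0.77 (Rpl22), wider than those between males, which lie between -0.33 and 0.27.

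Genes that make, regulate or work with ribosomes were set beside the members in the same fit, and 0 of them passed an adjusted p of 0.05 in transgenic against wild-type livers. Of the genes listed as elongation factors and other TOP mRNAs, 21 of 23 were measured, 17 with a negative difference (median -0.17). At an unadjusted p under 0.05, 3 were lower (background 3.1%). The list is mixed: it holds initiation factor genes such as Eif4a2, Eif4b and Eif3k, and also Eef2k and Eef1e1, which are not elongation factors. Between males 14 of the 21 were negative and the median was -0.055, against -0.018 over all features. At that p, 1 was higher (background 3.92%) and 1 lower (background 3.04%) between males. Eif4a2, an RNA helicase, read -0.37, -0.40 and -0.23 in the transgenic livers, against 0.0048, -0.047, -0.011 and 0.093 in the wild-type livers, with no overlap (-0.34 ± 0.092, adjusted p = 0.665). Eif4b, its cofactor, read -0.95, -0.54 and -0.63 in the transgenic livers and 0.59, -0.073, -0.72 and 0.31 in the wild-type livers, where wild-type male 3 lay within the transgenic range. Eif3k, a subunit of initiation factor 3, differed by -0.34 ± 0.12 without overlap. Of the other initiation factors 21 of 27 were measured, 17 with a negative difference (median -0.13), and between males 15 (median -0.035). Eif3a, the scaffold of initiation factor 3, stood against these at 0.50, 0.63 and 0.31 in the transgenic livers, against -0.16, -0.10, 0.21 and -0.24 in the wild-type livers (0.56 ± 0.14, adjusted p = 0.647). Eif4g2 differed by -0.40 ± 0.15 and Eif2s2, the beta subunit of initiation factor 2, by -0.38 ± 0.15.

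Ribosome biogenesis was represented by 72 of 80 listed genes, 35 above 0 and 37 below 0 (median -0.0092), of which 4 were higher (background 3.82%) and 2 lower (background 3.1%) at an unadjusted p under 0.05. Between males 47 of the 72 were above 0, against 44.6% of all features, and the median was 0.083, against -0.018. At that p, 8 were higher (background 3.92%) and 1 lower (background 3.04%) between males. Nolc1, a nucleolar phosphoprotein, read 0.47, 0.57 and 0.44 in the transgenic livers, against -0.19, 0.016, 0.16 and -0.13 in the wild-type livers, with no overlap (0.54 ± 0.11, adjusted p = 0.508). Gnl2, a GTPase needed to export the large subunit from the nucleus, read 0.33, 0.27 and 0.28 in the transgenic livers and -0.17, -0.047, 0.15 and -0.20 in the wild-type livers (0.37 ± 0.11, adjusted p = 0.677). Nop10, of the RNA-modifying H/ACA particles, differed by 0.26 ± 0.089. RNA polymerase I, which transcribes ribosomal RNA, had 15 of 15 genes measured, 10 with a positive difference (median 0.0097), and 7 between males (median -0.011). Its genes with the smallest p were Polr1d (-0.23 ± 0.12), Znrd1 (-0.15 ± 0.090) and Taf1a (0.18 ± 0.13).

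Of the regulators in the mTOR pathway and the transcription factors of ribosomal genes 25 of 25 were measured, 8 with a positive difference (median -0.058; between males also 8, median -0.095), and 0 reached an unadjusted p of 0.05. Mtor read 0.23, 0.25 and 0.12 in the transgenic livers and -0.13, -0.042, 0.23 and -0.18 in the wild-type livers. Myc, which drives ribosomal genes, differed by -0.22 ± 0.11 and Mycn by 0.24 ± 0.12. Of the S6 kinases 5 of 10 were measured, 4 with a negative difference, led by Rps6kb2, the kinase S6K2 (-0.37 ± 0.19). Of the 14 entries listed under ribosome quality control, among which Ltn1 is repeated, 12 genes were measured, 6 in each direction, as between males. The list also takes in the Eif2ak kinases, Nufip1 and Znhit6. Eif2ak2, the interferon-induced kinase PKR that stops initiation, read 0.43, 0.32 and 0.47 in the transgenic livers, against -0.37, -0.039, 0.14 and -0.20 in the wild-type livers (0.54 ± 0.13, adjusted p = 0.576). Of the p53 targets and regulators 8 of 10 were measured, 3 with a positive difference and a median of -0.020, while between males 6 were positive and the median was 0.16. Cdkn1a differed by -0.089 ± 0.17 and Bbc3 by -0.13 ± 0.15. Fau, which encodes the small-subunit protein Rps30 in fusion with a ubiquitin-like part, differed by 0.060 ± 0.098.

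**Figure D5:**
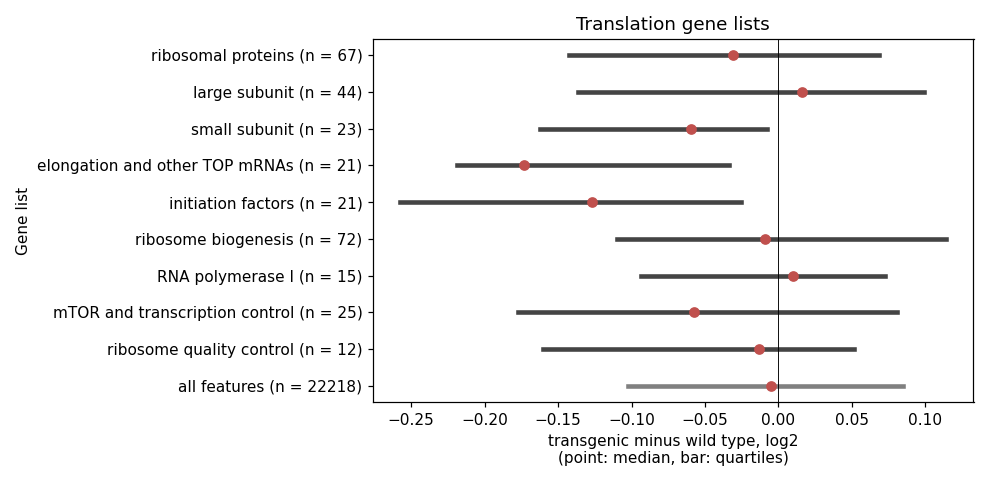
Median (point) and quartiles (bar) of the fitted transgenic minus wild-type difference (log2, x axis) for ribosomal proteins, their subunits and other translation gene lists (y axis, n genes measured), with all features at the bottom. The lists of elongation and other TOP mRNAs (-0.17) and of initiation factors (-0.13) lie left of the ribosomal proteins (-0.031). Between males their medians are -0.055 and -0.035, against -0.0040 for ribosomal proteins and -0.018 for all features. No list was tested.

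Since the values are ratios to a liver pool, absolute marker levels could not be used to check the tissue. Of the hepatocyte markers 12 of 14 were measured, and their median per array ran from -0.16 to 0.027 in the transgenic livers and from -0.059 to 0.0051 in the wild-type livers. Of the Kupffer cell markers 11 of 12 were measured, 9 with a positive genotype difference (median 0.46), 3 of them at an unadjusted p under 0.05 (background 3.82%). Between males the median of the Kupffer cell markers was 0.81, with 8 of 11 at that p (background 3.92%). Their median per array ran from 0.19 to 0.43 in the transgenic livers and from -0.68 to 0.82 in the wild-type livers, highest on the array labelled wild-type female. Of the lymphocyte markers 11 of 14 were measured, with medians from -0.025 to 0.15 in the transgenic livers and from -0.14 to 0.18 in the wild-type livers. The highest and the lowest lymphocyte median belonged to wild-type males 3 and 4, as did those of the ribosomal protein genes. On the transgenic female the 2 parted, with a lymphocyte median of 0.15 and a ribosomal protein median of -0.12. Medians of the genotype difference were 0.15 for 6 of 9 erythroid, -0.022 for 8 of 9 neutrophil and 0.0023 for 9 of 9 endothelial markers. The part of these cells in the values of the ribosomal protein genes was not tested.

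Leaving out 1 animal moved which members reached an unadjusted p under 0.05, while 0 passed the adjusted threshold with any animal left out. Without wild-type male 3 there were 13 (background in either direction 15.9%), 5 higher (Rpl31, Rpl22, Rpl6l, Rpl13 and Rpl27, background 6.47%) and 8 lower (Rplp2, Rps27l, Rpl6, Rpsa, Rps20, Rplp0, Rps13 and Rpl24, background 9.46%). Their adjusted p ran from 0.188 to 0.313. The difference of Rpl31 was then 0.33 ± 0.087, that of Rpl22 0.62 ± 0.16 and that of Rplp0 -0.37 ± 0.13. Without wild-type male 2 there were 4 (4.42%), without transgenic male 1 there were 3 (3.62%), without transgenic male 2 also 3 (6.85%), and without wild-type male 4 there were 2 (4.63%). Without either female there was 1, Rpl27 (6.96%), since the difference is then that between males. Between males it was -0.19 for Rplp2, -0.33 for Rps20, -0.16 for Rpl28, -0.14 for Rpl6, -0.11 for Rpl17 and -0.13 for Rpl29. It was 0.27 for Rpl22, 0.17 for Rpl13, 0.15 for Rpl6l, 0.16 for Rpl31, 0.20 for Rpl39, 0.24 for Rpl26 and 0.10 for Rpl10, so each kept its sign. The median difference of the 67 genes was -0.066 without transgenic male 1, 0.027 and -0.063 without wild-type males 3 and 4, each left out alone, and -0.0040 without either female, against -0.031 with all 7.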

How the data were processed

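The deposited table holds, per the labels, 1 value per probe and animal for 23574 probes and 7 animals on two-colour arrays. The values are log10 ratios by the authors, limited at -2 and 2; how dye swaps were combined, how arrays were background-corrected and normalized, and how columns were centred are not given in the sources used here. The scale was taken from the limits, and the direction (animal over pool) from the labelled dyes and Kdm5d. Total RNA came from spin columns with a DNase step and was labelled with an aminoallyl amplification kit, per the labels' protocols.

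A factor of 3.3219 turned them into log2 ratios. The platform annotation gave 17824 probes 1 symbol, 50 several and 5700 none. Probes of a gene were averaged, giving 22218 features with 0 missing values. Of the 67 members 66 were found in the RefSeq gene table by gene number, and 0 of their probe values lay at the limits.

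Differences were fitted over all features with limma 3.58.1 (R 4.3.3; lmFit and eBayes) with genotype and sex as terms, and the interaction in a model of its own. Benjamini-Hochberg adjustment ran over all 22218 features, with calls at 0.05. The scripts were tested on simulated data. No test was made of a list, and p-values measure the spread between these 7 animals.

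The members and the lists were chosen with earlier results of these data known. Named were Zfp90, the 8 members with the smallest p in each direction for genotype, 5 for sex and 3 for the interaction, the 3 widest and 3 steadiest, the 3 with the widest gap between probes, members by role, the 3 smallest p of each other list, and the 5 genes with the most similar profile. Rpl24, Rpl37, Rpl7l1 and Rps13 and others named beside a count were chosen after their values were seen. Alternatives were median centring, quantile normalization, models without the other factor, males alone, a robust variance model and probes taken singly. Others were a fit of the named genes only, the upper 50% of features by mean absolute ratio, and the omission of each animal in turn.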

Additional observations from a re-analysis of the deposited data

How the results depend on the processing

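Of the 67 ribosomal protein genes, 0 passed the adjusted threshold for genotype, for sex or for the interaction under every alternative run in limma (15, 14 and 11 settings). The number at an unadjusted p under 0.05 for genotype was 2 with all animals (background in either direction 6.91%), 5 of 103 with single probes (6.83%, 0 higher), and between 1 (6.96%) and 13 (15.9%) with 1 animal left out, the highest without wild-type male 3. For sex it was 1 with all animals (9.23%) and 4 without the array labelled wild-type female (7.9%), wild-type male 3 (16.7%) or wild-type male 4 (7.74%). For the interaction it was 3 with all animals (8.42%), 10 without wild-type male 3 (11.3%), 10 of 103 with single probes (8.34%), 5 with median centring (8.49%) and 1 with quantile normalization (6.25%). The median genotype difference of the members was -0.031, and ran from -0.066 to 0.027 over the settings, against an SD of 0.12 of the members' median over wild-type animals. It was positive without wild-type male 3 (0.027). For the upper 50% of features by mean absolute ratio it was 0.017 over the 37 members kept, but that filter uses the members' own ratios and is no separate check. It was -0.023 with median centring and -0.013 with quantile normalization. The median sex difference ran from -0.094 to 0.025. For the 16 members named by genotype and for Zfp90, 246 refits gave 0 changes of sign and 0 calls. These members were named for their small p in the same data, which favours a stable sign. Among members named by role, the sign changed for Rpl11 (-0.054 to 0.15), Rpl22l1 (-0.084 to 0.11), Rps27 (-0.16 to 0.037) and Rps6 (-0.087 to 0.067). It did not change for Rpl5, Rplp0 and Rpsa. Part of the 246 refits could not change a sign. The robust model and the fits of fewer features leave each coefficient as it is, as do single probes for a gene with 1 probe. Males alone and the omission of either female give the same difference between males. The interaction could not be fitted without either female. Signal over background is unknown, so no limit by probe brightness can be given. No paired analysis was made, because the labels give no pairing of animals between the genotypes.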
